A study of Mus musculus with 20 samples.

Results

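Thermogenic fat genes were examined in mouse flank tissue during a time course of Ad-VEGF-A164, an adenovirus carrying a gene for VEGF-A164, a growth factor of blood vessels. The set was a list of 9 genes of brown and beige fat: Ucp1, Cidea, Dio2, Ppargc1a, Cox7a1, Cox8b, Elovl3, Prdm16 and Adrb3. A member was measured where at least 1 probe set was annotated to that symbol alone, and its value came from the probe set with the highest mean signal. This gave 8 of the 9 genes, out of 18194 genes with a probe set in all, and Adrb3 was not analysed here. All 8 reached the minimum mean signal of 300 over 19 arrays and were among the 13595 genes tested. Ucp1 reached it through 1 array, control A, and fell below it when that array was left out.

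Each array held RNA of flank tissue, read as Affymetrix MAS5 signals on a linear scale. The control group had 5 arrays (A to E) of control flank harvested on day 0. The other groups received Ad-VEGF-A164 and were harvested on day 5 (4 arrays, B to E), day 20 (5 arrays, A to E) or day 60 (5 arrays, A to E). Another array, A of day 5 by its title but a day 0 control by its source name, entered no comparison. The labels give no strain, sex, age or vector dose, and no group with an empty vector is used here, so the growth factor, the vector, the injection and the passage of time cannot be told apart. Nothing in the labels says that arrays came from separate mice, so p-values measure the spread between these arrays only, which may be technical. In a whole tissue, fewer cells of a type and less RNA per cell cannot be told apart.

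Brown and beige adipocytes burn fatty acids to make heat. Noradrenaline acts on the beta-3 adrenergic receptor, cAMP rises, fatty acids are released, and the mitochondrial carrier UCP1 lets protons return across the inner membrane without making ATP. White fat depots of the mouse, including the subcutaneous fat of the flank, can hold scattered beige cells. Several genes of the programme are not particular to fat: Ppargc1a, Cox7a1 and Cox8b are also expressed in skeletal muscle, and Elovl3 in sebaceous glands.

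The signal of Vegfa, which the vector carries, checked the labels. It lay between 66.5 and 467 in the controls, 3927 and 9410 on day 5, 7127 and 13514 on day 20, and 219 and 1076 on day 60. Array medians ranged from 406 to 569. For Actb the 3' signal divided by the 5' signal, which grows as RNA breaks down, had a median of 7.14 over controls, 4.52 over day 5 arrays, 4.06 over day 20 arrays and 10.4 over day 60 arrays. No pair of arrays held identical values. Control A stood apart in the thermogenic genes. Changes of the members that rest on it are given with and without it, and counts of the other lists include it unless stated.

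Ucp1, the uncoupling carrier that defines thermogenic fat, had a signal of 43788.5 in control A. The other controls read 516 in B, 1720 in C, 723 in D and 59.9 in E. On day 5 the signals were 67.8 in B, 29.8 in C, 148 in D and 42.4 in E. On day 20 the arrays ranged from 25.8 to 176 (median 49.1), and on day 60 from 25.5 to 302 (median 42.6). Control A was thus 25.5 times the next control, and 4 of the 5 controls lay above all 14 arrays after the vector. Control E lay among the arrays after the vector, so the groups overlapped.

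Cidea, a lipid droplet protein abundant in brown fat, showed the same high array. Its signals in control were 19489 in A, 1124 in B, 1002 in C, 885 in D and 1822 in E. On day 5 they were 51.7 in B, 124 in C, 333 in D and 246 in E. Day 20 arrays read from 27.9 to 353 (median 300.5) and day 60 arrays from 112 to 668 (median 553). Every array after the vector was below every control array. This held for control B to E as well as for control A.

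**Figure D1:**
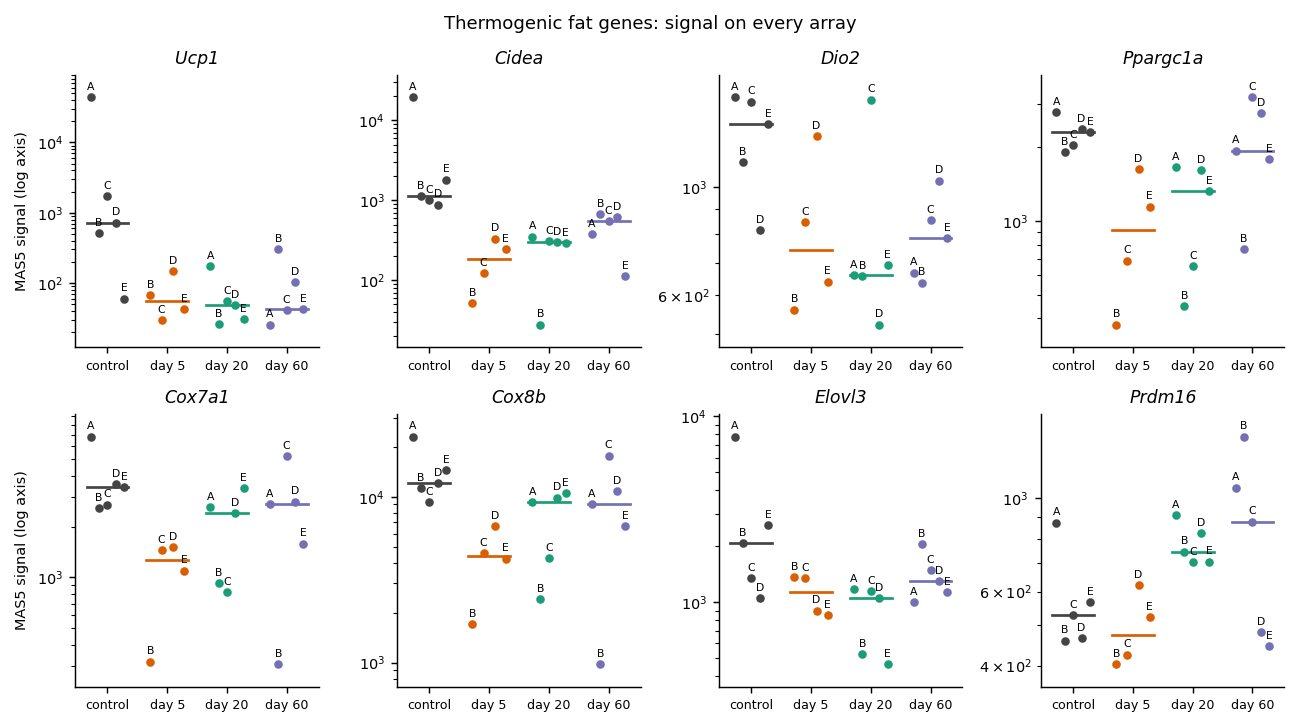
MAS5 signal (log axis) of the 8 measured thermogenic fat genes on the 19 arrays with a group, with 1 point and its letter per array and a line at each group's median. Control A is the highest control in all 8 genes, by 25.5 times in Ucp1 and 1.02 times in Dio2, and all day 5 arrays of Cidea, Ppargc1a, Cox7a1 and Cox8b lie below all controls.

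Control A was the highest of the 5 controls in 8 of 8 members. Over all tested genes it was the highest in 17.3%. When the 13595 tested genes were ranked by the log2(signal + 100) of control A minus the mean of control B to E, Ucp1 came at rank 1 (difference 6.15), Cidea at rank 2 (3.95) and Elovl3 at rank 5 (2.16). Otop1, a channel gene expressed in brown fat, was at rank 3 (2.98), with a signal of 4049 in control A and at most 688 in the other controls. Acot11, a cold-induced thioesterase gene of brown fat, was at rank 10 (1.79). Cox7a1 ranked 81 and Cox8b 135. Prdm16 followed at rank 473, Ppargc1a at 1817 and Dio2 at 1842, with differences of 0.69, 0.36 and 0.36. Regulators and marker genes of thermogenic fat outside the members were mixed. Of 21 tested, control A was the highest control in 9 and the lowest in 4 (median difference 0.195).

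Genes that supply fuel to mitochondria were also high in control A. It was the highest control in 14 of 16 fatty acid oxidation and lipid fuel genes (median difference 0.91) and in 20 of 25 respiratory chain genes (0.58), against a median of -0.03 over all tested genes. For white adipocyte genes the median difference was similar (0.55), while control A was highest in 4 of 21 and lowest in 0. Those 4 were Gpd1, Fasn, Acaca and Slc2a4. Adipoq, which encodes adiponectin, read 33133 in control A and 21871 to 61847 in the other controls. Skeletal muscle markers were highest in control A in 14 of 24 (median difference 0.31). Macrophage markers were lowest there in 10 of 11 (median difference -0.999). Mammary epithelial markers were highest in control A in 0 of 14 and sebaceous gland markers in 0 of 4. The part of these lists in the level of the thermogenic genes was not tested.

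**Figure D2:**
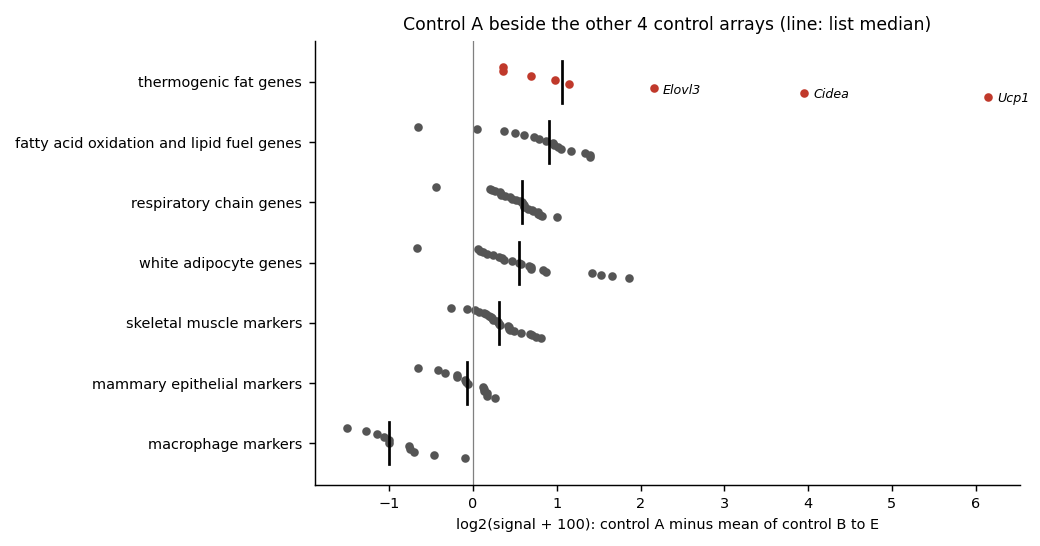
Difference of control A from the mean of the other 4 controls on the log2(signal + 100) scale, with 1 point per tested gene in 7 lists and a line at each list's median. Ucp1 (6.15), Cidea (3.95) and Elovl3 (2.16) lie to the right of all genes of the other lists, whose medians run from -0.999 for macrophage markers to 0.91 for fatty acid oxidation genes.

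Day 5 against control asked which thermogenic genes differed on the earliest day sampled after the vector. Of the 8 members 5 fell, 0 rose and 3 did not pass, beside 17.5% of all tested genes called lower, 16.8% called higher and 34.3% called in either direction. All day 5 arrays lay below all controls in 4 of 8 members (Cidea, Ppargc1a, Cox7a1 and Cox8b) and in 14.8% of all tested genes. The members' median log2 change was -1.54 and that of all tested genes -0.07. All fold changes are computed after adding 100 to the signal, so those of weakly expressed genes come out too small. Ucp1 fell 8.73-fold (log2 change -3.13 ± 0.98, SE, limma adjusted p = 0.0182), a difference between group means of log2(signal + 100). Its arithmetic mean signal was 9362 ± 19255 in control (SD, n = 5) and 71.9 ± 52.9 on day 5 (n = 4). Control A raised that control mean far above the control median of 722.9, so the ratio of the arithmetic means is not the fold change given. Without control A the control mean was 755 ± 701 (n = 4) and Ucp1 had a log2 change of -1.90 ± 0.54 (adjusted p = 0.0138). That p, and the place of Ucp1 among the 5, keep it in the test by a signal minimum that counted control A. Ucp1 is not tested when the minimum is taken without that array. Cidea fell 8.19-fold (-3.03 ± 0.68, adjusted p = 0.00185), and had a log2 change of -2.24 ± 0.44 without control A (adjusted p = 0.000951).

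Ppargc1a, the coactivator PGC-1alpha that drives mitochondrial biogenesis, read 2778, 1906, 2027, 2359 and 2306 in control A to E. On day 5 it read 377, 688, 1619 and 1141 in B to E, all below the controls. It fell 2.49-fold (log2 change -1.32 ± 0.40, adjusted p = 0.0163), and the call ended without day 5 B (-0.99, adjusted p = 0.0772). Ppargc1a had 5 probe sets, and day 5 log2 changes on the other 4 ran from -1.96 to -0.94. Of these 3 passed (adjusted p = 0.00321, 0.0109 and 0.0241) and 1 did not (adjusted p = 0.0583).

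Cox7a1 and Cox8b encode the heart and muscle type forms of 2 subunits of cytochrome c oxidase and are used as brown fat markers. Cox8b read 23061, 11222, 9274, 12057 and 14525 in control A to E, and 1698, 4561, 6654 and 4240 in day 5 B to E. Cox7a1 read 6818, 2559, 2698, 3585 and 3430 in the controls, and 318, 1450, 1508 and 1098 on day 5. Neither gene's groups overlapped, and in both day 5 B was far below the others. Cox7a1 fell 3.48-fold (log2 change -1.80 ± 0.59, adjusted p = 0.0241) and Cox8b 3.39-fold (-1.76 ± 0.61, adjusted p = 0.0325). Without control A the log2 changes were -1.57 for Cox7a1 and -1.57 for Cox8b, which did not pass (adjusted p = 0.0632 and 0.0778), but both passed at those values without control A and day 60 B (adjusted p = 0.0153 and 0.0122). Both calls ended without day 5 B (-1.35 and -1.38, adjusted p = 0.104 and 0.121). The Cox8b call also ended without control E, day 5 C or day 5 E (-1.73, -1.84 and -1.81, adjusted p = 0.0563, 0.0525 and 0.0555).

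Elovl3, a fatty acid elongase of brown fat and sebaceous glands, read 7792, 2083, 1344, 1053 and 2595 in control A to E. Its day 5 signals were 1362, 1353, 901 and 849 in B to E, which overlapped with control C and D. The log2 change was -1.001 ± 0.41 (adjusted p = 0.0661), and -0.57 ± 0.31 without control A (adjusted p = 0.177). It passed without control C (-1.18, adjusted p = 0.0409) or control D (-1.26, adjusted p = 0.023). Of the 4 sebaceous gland markers measured 1 fell on day 5, the keratin gene Krt79 (-1.04 ± 0.37, adjusted p = 0.0364). The list mean lay between 9.65 and 10.38 in control and between 9.20 and 9.68 on day 5 on the log2(signal + 100) scale, and its part in the level of Elovl3 was not tested.

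Dio2, the deiodinase that activates thyroid hormone inside cells, read 1524, 1125, 1494, 817 and 1342 in control A to E and 561, 848, 1269 and 640 in day 5 B to E. The log2 change was -0.58 ± 0.26 (adjusted p = 0.0905). It passed without control D (-0.71, adjusted p = 0.0463), day 5 D (-0.78, adjusted p = 0.0293) or day 20 C (-0.58, adjusted p = 0.042). The other Dio2 probe sets did not pass on day 5 (-0.59 and -0.78, adjusted p = 0.134 and 0.156). Prdm16, a transcriptional regulator of brown and beige adipocyte identity, read 875, 459, 528, 465 and 566 in control and 404, 425, 622 and 523 on day 5. Its log2 change was -0.18 ± 0.25 (adjusted p = 0.624), with a 95% interval from -0.70 to 0.35. Of the other 3 Prdm16 probe sets none reached the minimum mean signal.

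Without control A, 3 members fell on day 5 (Ucp1, Cidea and Ppargc1a) and their median log2 change was -1.41. Taking the minimum signal again over the 18 remaining arrays removed Ucp1 and left 2 (Cidea and Ppargc1a). The Ucp1 call on day 5 also ended when the fit held control and day 5 arrays alone (adjusted p = 0.0628).

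**Figure D3:**
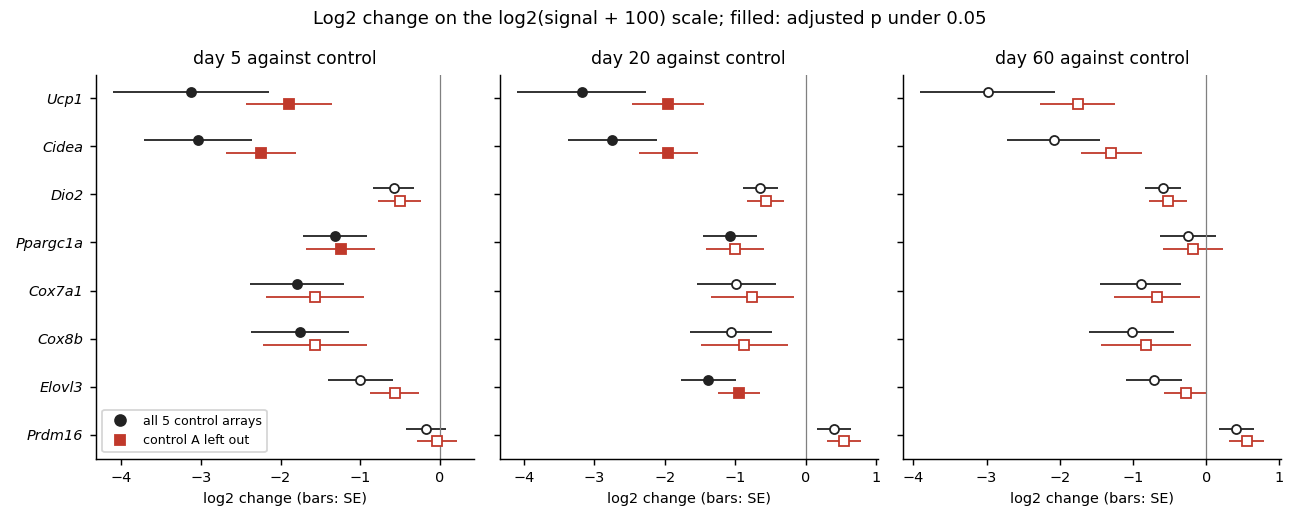
Log2 change against control on days 5, 20 and 60 for the 8 measured genes, with all 5 control arrays (circles) and without control A (squares). Bars are SE and filled symbols passed at an adjusted p under 0.05: 5 and 3 genes on day 5, 4 and 3 on day 20, and 0 and 0 on day 60. The counts without control A include Ucp1, which is not tested when the signal minimum is taken again, leaving 2 on day 5 and 2 on day 20.

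Day 20 against control asked which of these differences were present after longer exposure. Of the 8 members 4 fell, 0 rose and 4 did not pass, beside 14.5% of all tested genes called lower, 15.6% called higher and 30.1% called either way. All day 20 arrays lay below all controls in 2 of 8 members (Cidea and Ppargc1a) and in 9.63% of all tested genes. The median was -1.07 for the members and -0.06 for all tested genes. Ucp1 fell 9.07-fold (-3.18 ± 0.92, adjusted p = 0.0134), and had a log2 change of -1.95 ± 0.52 without control A (adjusted p = 0.00979). As on day 5, that p keeps Ucp1 in the test by a signal minimum that counted control A, and Ucp1 is not tested when the minimum is taken without it. Cidea fell 6.70-fold (-2.74 ± 0.64, adjusted p = 0.00299), and had a log2 change of -1.95 ± 0.42 without control A (adjusted p = 0.00222).

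Elovl3 read 1176, 527, 1149, 1055 and 464 in day 20 A to E and fell 2.60-fold (-1.38 ± 0.39, adjusted p = 0.0111). Without control A its change was -0.95 ± 0.29 (adjusted p = 0.0243). Of the 4 sebaceous gland markers 2 fell on day 20, Krt79 (-1.65 ± 0.35, adjusted p = 0.00146) and the melanocortin receptor gene Mc5r (-0.76 ± 0.19, adjusted p = 0.00576), and their part was not tested. Ppargc1a read 1654, 447, 654, 1607 and 1319, all below the controls, with B and C lowest. It fell 2.11-fold (-1.08 ± 0.38, adjusted p = 0.0386). The call ended at a similar size without control A, C, D or E (-1.003, -1.11, -1.06 and -1.07, adjusted p = 0.084, 0.0531, 0.0679 and 0.0656) and without day 20 B or C (-0.82 and -0.93, adjusted p = 0.122 and 0.094). It passed without control A and day 60 B together (-1.003, adjusted p = 0.0483). All 4 other Ppargc1a probe sets passed on day 20, with log2 changes from -1.37 to -0.89.

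The oxidase subunit genes did not pass on day 20. Cox8b read 9253, 2420, 4261, 9871 and 10567 in A to E, so that 3 of 5 arrays lay below all controls (log2 change -1.06 ± 0.58, adjusted p = 0.177). Cox7a1 read 2614, 924, 816, 2411 and 3370 (-0.98 ± 0.56, adjusted p = 0.194). In both genes B and C were the low arrays. Dio2 read 660, 657, 1507, 522 and 691 (-0.64 ± 0.24, adjusted p = 0.0525), with C high, and passed without that array (-0.87, adjusted p = 0.00504). Dio2 also passed without control D, day 5 B or day 5 D (adjusted p = 0.0272, 0.0489 and 0.0404). The other Dio2 probe sets did not pass on day 20 (-0.38 and -0.39, adjusted p = 0.331 and 0.487). On those probe sets day 20 C read 580 and 110 and was not the highest array of its group. Prdm16 read 913, 746, 705, 827 and 707, with a log2 change of 0.40 ± 0.24 (adjusted p = 0.215).

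Day 60 against control asked whether differences were still present after the vector's signal had gone down. None of the 8 members passed in limma's test (3 at an unadjusted p under 0.05: Ucp1, Cidea and Dio2), beside 1.13% of all tested genes called (0.765% lower and 0.368% higher) and 15.9% at an unadjusted p under 0.05. Ucp1 read 25.5, 302, 41.3, 104 and 42.6 in A to E, with a log2 change of -2.99 ± 0.92 (adjusted p = 0.107) and a 95% interval from -4.91 to -1.06. Cidea read 377, 668, 553, 617 and 112, all below the lowest control (-2.09 ± 0.64, adjusted p = 0.105). It was the only member with no overlap on that day, and 1.38% of all tested genes had all day 60 arrays below all controls. Without control A the log2 changes were -1.76 ± 0.52 for Ucp1 (adjusted p = 0.175) and -1.29 ± 0.42 for Cidea (adjusted p = 0.203).

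Ppargc1a and the oxidase subunit genes spread widely on day 60. Ppargc1a read 1931, 765, 3187, 2738 and 1789 in A to E, on both sides of the controls (-0.25 ± 0.38, adjusted p = 0.786). Cox8b read 9043, 980, 17683, 10845 and 6630 (-1.02 ± 0.58, adjusted p = 0.406). Cox7a1 read 2714, 307, 5234, 2807 and 1586 (-0.90 ± 0.56, adjusted p = 0.444). Day 60 B was the lowest array of the whole course in Cox7a1 and Cox8b, and the lowest of its group in Ppargc1a. Elovl3, less spread than in control, ranged from 1003 to 2058 (-0.71 ± 0.39, adjusted p = 0.382), Dio2 from 637 to 1029 (-0.59 ± 0.24, adjusted p = 0.23) and Prdm16 from 446 to 1401 (0.41 ± 0.24, adjusted p = 0.409).

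Between the later days no member passed. On day 20 against day 5 the call count was 0 of 8 (1 at an unadjusted p under 0.05, Prdm16), beside 5.3% of all tested genes (2.25% lower and 3.05% higher). The 5 day 20 arrays of Prdm16 all lay above the 4 day 5 arrays (0.58 ± 0.25, adjusted p = 0.202). The share of all tested genes separated in this way was not computed for day 20 against day 5. On day 60 against day 20 it was 0 of 8 (1 unadjusted, Ppargc1a), beside 22.1% (11.2% lower and 11% higher). On day 60 against day 5 it was 0 of 8 (2 unadjusted, Ppargc1a and Prdm16), beside 24.4% (12.2% lower and 12.2% higher). At an unadjusted p under 0.05 in limma's test the shares of all tested genes were 19.9%, 34.6% and 36.4%, in the same order. The log2 change of Ppargc1a was 1.07 ± 0.40 on day 60 against day 5 (adjusted p = 0.0599) and 0.83 ± 0.38 against day 20 (adjusted p = 0.128). Without day 60 B it passed in both (1.37, adjusted p = 0.0117, and 1.13, adjusted p = 0.0297), and it passed against day 5 also without day 5 D (adjusted p = 0.0263) or day 20 B (adjusted p = 0.0431). Cox7a1 and Cox8b passed on day 60 against day 5 without day 60 B (1.47, adjusted p = 0.0312, and 1.40, adjusted p = 0.0303). Prdm16 (0.59 ± 0.25, adjusted p = 0.0957) passed there without day 60 D or E (adjusted p = 0.0418 and 0.027). Dio2 depended on the probe set, with a log2 change of -0.01 on the brightest and 1.09 on another (adjusted p = 0.0113) on day 60 against day 5. That other probe set also passed on day 60 against day 20 (0.89, adjusted p = 0.0295) and had the opposite sign on day 60 against control (0.50, adjusted p = 0.414).

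Skeletal muscle markers, respiratory chain genes and fatty acid oxidation genes shared many of their lowest and highest arrays with Cox8b, Cox7a1 and Ppargc1a. Within each of the 4 groups the array with the lowest muscle list mean was also lowest in Cox8b in 4 groups, in Ppargc1a in 3 and in Cox7a1 in 2. The array with the highest muscle mean was highest in Cox8b and in Cox7a1 in 4 of 4 groups and in Ppargc1a in 3. The respiratory chain and fatty acid oxidation lists gave the same counts for these 3 genes. Cidea and Dio2 shared the lowest muscle array in 2 groups, as Cox7a1 did, and the highest in 2. Ucp1, Prdm16 and Elovl3 shared the lowest in 1, 1 and 0 groups and the highest in 2, 2 and 1. Control A was the highest control in the muscle mean and in all 8 members, so every member has that match. The share over all tested genes was not computed. The muscle mean over 24 genes was 12.56 in day 5 B and 11.99 in day 60 B, against 14.85 to 15.44 in the controls on the log2(signal + 100) scale. It ranged from 12.56 to 14.54 on day 5, from 13.45 to 14.92 on day 20 and from 11.99 to 15.53 on day 60. On day 5, 11 of 24 muscle markers fell and 0 rose (median -1.32), 7 fell without control A and 18 without control A and day 60 B, led by the calcium store gene Casq1 (-2.83 ± 0.53, adjusted p = 0.000396), the slow myosin gene Myh7 (-2.21 ± 0.58, adjusted p = 0.00612) and Cox6a2, the muscle form of another oxidase subunit (-2.20 ± 0.73, adjusted p = 0.025). The part of muscle RNA in the changes of these members was not tested. The Actb 3' to 5' ratio was 10.4 in day 60 B, 13.97 in day 60 A and 10.9 in day 60 D, and its part was not tested either.

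**Figure D4:**
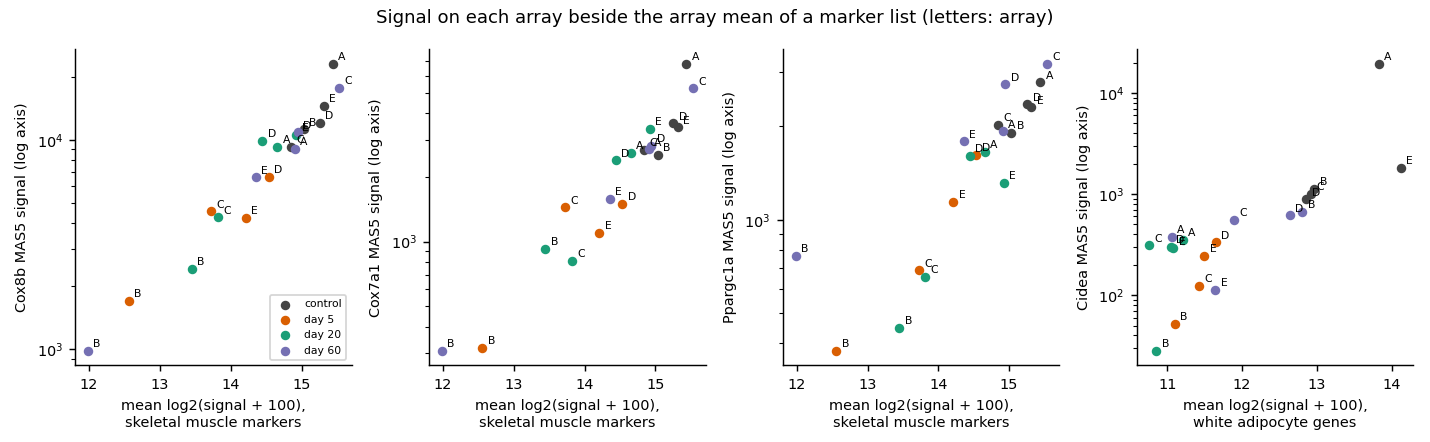
Signal of Cox8b, Cox7a1 and Ppargc1a (log axis) beside the mean log2(signal + 100) of 24 skeletal muscle markers, and of Cidea beside that of 21 white adipocyte genes, with 1 lettered point per array in 4 groups. Arrays low in the muscle mean, such as day 60 B at 11.99 and day 5 B at 12.56, are low in Cox8b, whereas control A lies above control E in Cidea at a lower adipocyte mean (13.8 and 14.1).

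White adipocyte genes were lower together with Ucp1 and Cidea. Of 21 tested, 17 fell and 0 rose on day 5 (median -1.84), and 17 fell and 0 rose on day 20 (median -2.09). Day 5 examples were Thrsp, a regulator of fatty acid synthesis (-5.03 ± 0.75, adjusted p = 4.51e-05), Pck1 (-3.18 ± 0.68, adjusted p = 0.00125) and the fatty acid synthase gene Fasn (-3.07 ± 0.50, adjusted p = 0.000109). On day 60, 6 of 21 were lower (1 without control A). The list mean lay between 12.9 and 14.1 in control, 11.1 and 11.7 on day 5, 10.8 and 11.2 on day 20, and 11.1 and 12.8 on day 60. Day 60 B, the lowest in the muscle mean, was the highest of its group in the adipocyte mean and in Ucp1 and Cidea. Control E, the highest control in the adipocyte mean, was the lowest control in Ucp1 (59.9). The array with the highest adipocyte mean was highest in Ucp1, Cidea and Prdm16 in 3 of 4 groups each. The array with the lowest was lowest in 1 group for Ucp1 and in 2 each for Cidea and Prdm16. The share over all tested genes was not computed. The part of adipocyte number in the level of Ucp1 and Cidea was not tested.

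Regulators and marker genes of thermogenic fat outside the 9 were mixed. Of 21 tested, 11 fell and 1 rose on day 5 (median -0.83), and 6 fell and 2 rose on day 20 (-0.48). Without control A 9 fell and 1 rose on day 5, and 5 fell and 1 rose on day 20. The amino acid transporter gene Slc36a2, a surface marker of brown adipocytes, fell most (-2.36 ± 0.32, adjusted p = 1.47e-05), and Nrg4, a growth factor secreted by brown fat, fell too (-1.57 ± 0.26, adjusted p = 0.000111). Nrg4 was also lower on day 60 (adjusted p = 0.0338), but without control A none of the 21 passed on that day. The beige marker Tmem26 rose (1.57 ± 0.24, adjusted p = 6.92e-05), from 428 in control to 1396 on day 5. In the receptor and cAMP arm 5 of 13 fell and 1 rose on day 5 (median -0.28), and 3 fell and 4 rose on day 20 (median 0.003). The phosphodiesterase gene Pde4b rose on day 5 (0.76 ± 0.20, adjusted p = 0.00759), and it was named after its value was seen. The most changed genes on day 5 were the phosphodiesterase gene Pde4d (-1.96 ± 0.35, adjusted p = 0.000271) and the protein kinase A subunit genes Prkar2b (-1.13 ± 0.33, adjusted p = 0.0124) and Prkaca (-0.88 ± 0.16, adjusted p = 0.000324).

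Genes that burn fuel were lower on day 5. Of 16 fatty acid oxidation and lipid fuel genes 11 fell and 0 rose (median -0.98, and 9 fell without control A). Among them were Pdk4, which limits glucose oxidation (-1.52 ± 0.54, adjusted p = 0.0337), and the beta-oxidation genes Hadh (-1.35 ± 0.18, adjusted p = 1.49e-05) and Acadvl (-1.24 ± 0.33, adjusted p = 0.00668). Of 25 respiratory chain genes 11 fell and 0 rose (median -0.53, and 6 fell without control A), with Uqcrfs1 (-1.17 ± 0.36, adjusted p = 0.0159), Sdha (-0.99 ± 0.29, adjusted p = 0.0125) and Ndufs1 (-0.91 ± 0.27, adjusted p = 0.0122). Of 8 creatine and calcium cycling genes 2 fell (Ckmt2, -1.96, and Slc6a8, -0.52) and 2 rose, among them Gatm, an enzyme of creatine synthesis (1.11 ± 0.31, adjusted p = 0.0089). Without control A 1 of the 8 fell and 1 rose. On day 60 none of these 3 lists held a gene that passed in limma's test.

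Close relatives of the members did not all follow them. Of 15 tested paralogs 4 fell and 2 rose on day 5, and 5 fell and 2 rose on day 20. The other forms of the oxidase subunits did not pass on day 5: Cox7a2 (-0.29 ± 0.18, adjusted p = 0.226), Cox7a2l (-0.15, adjusted p = 0.421), Cox8a (-0.16 ± 0.14, adjusted p = 0.405) and Cox8c (0.01, adjusted p = 0.98). Ucp3, the uncoupling protein of muscle, fell 1.95-fold on day 5 (-0.96 ± 0.26, adjusted p = 0.00669). Cidec, the lipid droplet relative of Cidea in white fat, fell on day 5 (-2.26 ± 0.46, adjusted p = 0.000925) and day 20 (-3.50, adjusted p = 6.69e-06). Ppargc1b fell on day 5 (-1.05 ± 0.26, adjusted p = 0.00451), while Pprc1 did not pass (0.24, adjusted p = 0.332). Among elongases Elovl6 fell on day 5 (-2.57 ± 0.44, adjusted p = 0.000189), Elovl1 rose (0.86 ± 0.20, adjusted p = 0.00294), and Elovl4, Elovl5 and Elovl7 did not pass. Elovl4 and Elovl7 were lower on day 20 (-1.97 and -1.48). Mecom, a relative of Prdm16, rose 7.37-fold on day 5 (2.88 ± 0.21, adjusted p = 1.23e-08) and was also higher on day 20 (2.52, adjusted p = 2.8e-08). Cideb did not pass on day 5 (adjusted p = 0.78), and Dio1 and Elovl2 were below the minimum signal.

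Macrophage and endothelial markers went the other way. Of 11 macrophage markers 9 rose on day 5 (median 2.11), with Msr1, Fcgr3 and Cd68 (3.10, 2.97 and 2.36). Of 10 endothelial markers 10 rose (median 2.21), with Icam2, Emcn and Tie1 (3.19, 3.05 and 2.79). Mammary epithelial markers fell in 11 of 14 (median -2.34), with Foxa1, Pgr and Krt18 (-5.40, -4.44 and -4.28). The part of these marker changes in the members' levels was not tested.

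The genes with the pattern nearest each member were found by Pearson correlation of log2(signal + 100) over the 19 arrays, which share the group differences and are of mixed tissue, so r is a description. For Ucp1 these were Otop1 (r = 0.92), Acot11 (0.90) and Ralgapa2 (0.81), and without control A the values were 0.67, 0.58 and 0.65. For Cidea they were Cpt2 (0.94), which takes fatty acids into mitochondria, Gpd1 (0.93) and Dhrs7 (0.91), with 0.86, 0.91 and 0.84 without control A. Elovl3 was nearest Insig1 (0.91), a regulator of sterol synthesis, Echdc1 (0.88) and Elovl6 (0.88). Cox8b and Cox7a1 were both nearest Rtn2 (0.98 and 0.98) and Chchd10 (0.98 and 0.98), then Sgca (0.98), a membrane protein of muscle fibres, for Cox8b and Stradb (0.97) for Cox7a1. Ppargc1a was nearest Phka1 (0.97), Myom2 (0.97) and Myoz3 (0.96), genes of muscle glycogen breakdown and of the sarcomere. Dio2 was nearest Uck1, Bud13 and Alad (0.79, 0.77 and 0.77), and Prdm16 nearest Slc25a37, Dtx1 and Tm9sf2 (0.83, 0.76 and 0.75). Among the members themselves Cox7a1 and Cox8b had r = 0.98, and Ucp1 and Cidea 0.85 (0.58 without control A). Ucp1 had 0.40 with Cox7a1 and 0.37 with Cox8b (0.13 and 0.12 without control A).

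Because Ucp1, Ppargc1a and Dio2 are targets of the cAMP pathway, the 200 bases before the start of each are shown from RefSeq (GRCm38.p6). Cox8b is shown beside them. It shared its lowest and highest arrays with the muscle, respiratory chain and fatty acid oxidation lists alike. Windows of 6 of the 9 genes were taken: Prdm16, Ppargc1a, Cox7a1, Cox8b, Ucp1 and Dio2. Capitals mark matches on either strand to the cAMP response element TGACGTCA, its core TGACG (which the full element contains), the nuclear receptor site AGGTCA, the muscle type E-box CAGCTG and the TATA box TATAAA. The windows are Ucp1 (chr8:83290148-83290347, + strand), Ppargc1a (chr5:51567726-51567925, - strand), Dio2 (chr12:90739039-90739238, - strand) and Cox8b (chr7:140900447-140900646, - strand).
Ucp1: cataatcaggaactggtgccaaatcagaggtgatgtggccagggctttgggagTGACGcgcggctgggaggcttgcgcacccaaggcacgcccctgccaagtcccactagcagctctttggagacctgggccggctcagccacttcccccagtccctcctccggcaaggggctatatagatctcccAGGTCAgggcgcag
Ppargc1a: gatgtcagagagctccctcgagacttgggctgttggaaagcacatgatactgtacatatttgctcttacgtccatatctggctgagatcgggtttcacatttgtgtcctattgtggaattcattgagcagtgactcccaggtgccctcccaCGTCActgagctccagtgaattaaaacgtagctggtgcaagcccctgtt
Dio2: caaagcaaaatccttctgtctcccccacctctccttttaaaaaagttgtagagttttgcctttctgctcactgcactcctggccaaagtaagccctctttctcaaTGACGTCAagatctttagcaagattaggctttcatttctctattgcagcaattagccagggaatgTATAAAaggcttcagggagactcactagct
Cox8b: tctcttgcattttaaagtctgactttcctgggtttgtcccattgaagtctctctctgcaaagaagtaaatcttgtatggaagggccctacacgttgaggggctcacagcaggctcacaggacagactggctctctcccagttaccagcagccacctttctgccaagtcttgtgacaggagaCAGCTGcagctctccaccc

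The full TGACGTCA was found in Dio2 alone among the 6, from -95 to -88 relative to the start, and in 1.47% of 32851 mouse promoter windows of the same length. Its core TGACG was found in Dio2, Ppargc1a (-49 to -45) and Ucp1 (-147 to -143), and in 15.7% of all windows. AGGTCA was found in Ucp1 (-14 to -9; 11.4% of windows), CAGCTG in Cox8b (-19 to -14; 10.9%) and TATAAA in Dio2 (-30 to -25; 9.96%). The longer TCAAGGTCA was found in none of the 6 and in 0.277% of windows. Nothing is drawn from these matches about the changes, since genes with and without the core fell on day 5 and no window of Cidea or Elovl3 was taken. A match is a description of the letters and was not set against binding data.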

How the data were processed

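The authors deposited linear MAS5 signals, an intensity for each probe set, background corrected and scaled with a factor of 1500, per the labels; GCOS 1.3 is named in the submitters' processing notes. The table held 45101 probe sets, of which 34958 had 1 gene symbol in the platform annotation, 932 several and 9211 none here; 34754 of the first were matched to the current gene table. No further normalization was applied. For each gene the probe set of highest mean on the 19 grouped arrays was kept. The 13595 genes whose mean reached 300 were fitted on log2(signal + 100) with limma 3.58.1 in R 4.3.3 (lmFit of 4 group means, eBayes with a trend, tests on both sides). Calls were made at a Benjamini-Hochberg adjusted p under 0.05 over all tested genes. The number of arrays limits the precision. The fit was tested on simulated data. The members and lists were chosen with earlier results of these data known. All members are named, with all measured paralogs, the 3 most changed passing genes of each other list on day 5 and the 3 genes most alike in pattern to each member. Otop1, Acot11 and other genes named for control A were chosen after their values were seen. Alternatives covered the pseudocount, the filter, scaling, eBayes and array weights, the samples fitted, the letter as a block, the unassigned array, the probe set and single arrays; leaving out control A with the filter taken again, or control A with day 60 B, was added after seeing the data.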

Additional observations from a re-analysis of the deposited data

Results flagged for a closer look

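Of 32 sets of signals (8 genes in 4 groups), 9 held an array whose distance from the next one took up more of the group's range than Dixon's 95% critical value allows. For separate sets of normally distributed values chance gives about 1 set in 20. These sets hold linear signals and share arrays, so that rate cannot be set against the 9. Control A was the high array in 5 of them: Ucp1 (43788.5, next 1720), Cidea (19489, next 1822), Cox7a1 (6818, next 3585), Elovl3 (7792, next 2595) and Prdm16 (875, next 566). Ucp1 was also high in day 20 A (176, next 55.8) and day 60 B (302, next 104), at signals near the minimum used for testing or below it. Cidea was low in day 20 B (27.9, next 290) and Dio2 high in day 20 C (1507, next 691).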

How the results depend on the processing

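Of 1644 values of single genes under the alternatives, 1531 kept their direction and side of the threshold, 32 came to pass, 26 no longer passed and 55 changed sign. The sign changes lay in 13 comparisons of a gene, of which 0 had passed, and 1 passed after the change: Dio2 on day 60 against day 5, at 1.09 on another probe set. Cidea on days 5 and 20 and Elovl3 on day 20 passed in all 34 alternatives run for each. Leaving out 1 array at a time gave 2 to 7 members on day 5 against control, 3 to 5 on day 20, 0 on day 60, 0 on day 20 against day 5, 0 to 1 on day 60 against day 20 and 0 to 3 on day 60 against day 5. With the array of conflicting labels as a control, 1 member passed on day 5 and 2 on day 20; as a day 5 array, 6 passed on day 5 and 5 on day 20 against control, with Dio2 added in both, and 1 on day 60 against day 5. Array weights gave 1 there, and fitting only the groups compared gave 1 on day 20 against day 5. Settings chosen after seeing the data gave 2 on day 5 and 2 on day 20 (control A left out and the filter taken again), and 1 on day 60 against day 20 and 3 against day 5 (control A and day 60 B left out). The cause was not tested. With the letter as a replicate block, 5 members passed on day 5, 5 on day 20, 1 on day 60 against day 20 and 1 on day 60 against day 5. The labels do not say whether the letters pair the arrays, and correlations over so few arrays per group cannot settle it. Over 27 same-letter pairs deviations from the group means correlated from -0.275 to 0.348 (median 0.024), with 11 over 0.1. Of 19 arrays 3 correlated best with their own letter. Ucp1 signals after the vector were mostly under the minimum of 300, which limits the precision of its fold changes.

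The other log2 values that changed sign were as follows, with the range given where 1 array at a time was left out. On day 20 against day 5, Cidea was -0.003 with the letter as a block and -0.10 with the array of conflicting labels in day 5. Ucp1 was 0.013 with that array in day 5 and ranged from -0.252 to 0.135. Ppargc1a was -0.076 on its dimmest tested probe set and ranged from -0.088 to 0.529. Dio2 was 0.207 and 0.385 on its other probe sets and ranged from -0.291 to 0.143. On day 60 against control, Dio2 was 0.502 and 0.073 on those probe sets. Ppargc1a was 0.064 with the array of conflicting labels as control, 0.126 without control A and day 60 B, and ranged from -0.428 to 0.054. On day 60 against day 20, Prdm16 was -0.001 with a pseudocount of 1, -0.029 after quantile normalization, -0.216 with array weights and -0.178 without control A and day 60 B, and ranged from -0.178 to 0.187. Ucp1 was -0.088 without control A and day 60 B and ranged from -0.088 to 0.391. Cox7a1 ranged from -0.272 to 0.656, Cox8b from -0.307 to 0.704 and Dio2 from -0.065 to 0.277. On day 60 against day 5, Dio2 was 0.851 on its dimmest probe set, 0.033 with the array of conflicting labels in day 5 and 0.052 without control A and day 60 B, and ranged from -0.159 to 0.192. Ucp1 was -0.29 with the letter as a block and -0.144 without control A and day 60 B, and ranged from -0.144 to 0.33.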

Other observations

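The array with conflicting labels (A of day 5 by title, day 0 control by source name) read 11111 for Vegfa, where no control exceeded 467. Its Ucp1 signal was 31.4, below all controls, and its Cidea signal was 933, inside the range of the controls. Ppargc1a (550), Cox7a1 (408), Cox8b (2203) and Dio2 (657) were below all controls, Elovl3 (2388) and Prdm16 (507) among them. Its muscle mean of 13.20 lay below the 14.85 to 15.44 of the controls on the log2(signal + 100) scale.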
